A study of Mus musculus with 4 samples.

Results

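Phase II conjugation enzymes attach a small polar group to drugs, bile acids, hormones and reactive lipid products, so that these leave the cell and the body. Glutathione S-transferases (Gst genes) transfer glutathione to electrophilic compounds, mostly in the cytosol. UDP-glucuronosyltransferases (Ugt genes) sit in the endoplasmic reticulum and transfer glucuronic acid from UDP-glucuronic acid. Cytosolic sulfotransferases (Sult genes) transfer sulfate from its activated form, PAPS. The liver is the main site of all these reactions, and hepatocytes around the central vein are known for higher levels of many of the enzymes than those around the portal tract.

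The genes described here are those whose symbol begins with Gst, Ugt or Sult and that have a probe set annotated to exactly 1 symbol, without pseudogenes. They are 47 of 19938 genes measured in this way, with 20 Gst, 11 Ugt and 16 Sult genes. Where a gene had several such probe sets, the set with the highest mean was taken, which concerned only Gstm3. In total, 48 probe sets carried the symbol of 1 member alone.

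Liver RNA came from 4 male aP2-SREBP-1c mice, with 1 array for each mouse. These mice have a C57Bl6 background and carry an HA-tagged N-terminal, active form of human SREBP-1c behind the aP2 promoter, which directs the transgene to adipocytes and not to the hepatocytes measured here. The labels give an age of 24 weeks, when a fatty liver had developed, while the study's methods give a range that also holds younger mice. All 4 arrays form 1 group, so that levels and the spread between mice are given, without a comparison of conditions and without p-values; livers of other genotypes were not analysed here.

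All values are log2 expression values that the authors computed by RMA, in which a difference of 1 stands for a doubling. Expression was taken as above background if the value was over the limit of each of the 4 arrays, which was set at the 95th percentile of 1212 odorant and vomeronasal receptor probe sets and lay at 5.33 to 5.52. Each probe set binds with its own strength, so a level is set only against the same probe set in another mouse. The array of mouse 1 stood apart, with 5657 of 12265 genes above background (46.1%) lowest in mouse 1, and this share was 78.1% for the 679 genes with a mean over 10. The livers carried the RNA of hepatocytes, with all 11 hepatocyte markers above background and Alb at 14.33 ± 0.03 (SD, n = 4). Of 5 measured adipocyte genes, Plin1, Lipe and Retn were above background, and Adipoq and Lep were not. Over these 3 genes, mouse 1 was higher than the other mice by 0.46 in the median. Plin1 and Retn were highest in mouse 1, whereas Lipe was highest in mouse 4, at 6.42, 6.32, 6.57 and 6.77 in mice 1 to 4. Of 13 measured pancreatic acinar genes, 11 were above background. The linear sum over all 13 was 3739 in mouse 1, 847 in mouse 2, 1071 in mouse 3 and 3108 in mouse 4. In tissue RNA, fewer cells of a type and less RNA per cell cannot be told apart.

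Of the 47 conjugation enzymes, 34 were above background (72.3%), against 61.5% of all genes. The families differed in this share, with 18 of 20 Gst genes, 10 of 11 Ugt genes and 6 of 16 Sult genes above background. Between mice, 6 of the 34 members differed by more than 1.5-fold from the highest to the lowest mouse (17.6%), against 12.9% of all genes above background. These were Gstm3 and Gstm6 among the Gst genes, none among the Ugt genes, and Sult1a1, Sult1b1, Sult1c2 and Sult2a8 among the Sult genes. In each of the 6, mouse 1 was lowest, and without mouse 1 the count was 0 of 34, against 2.67% of all genes. The closest values inside the threshold were 1.51-fold for Gstm3 and 1.53-fold for Sult1b1. Just outside it lay Ugt3a1 and Gstm2 at 1.49-fold and Ugt2b1 at 1.48-fold.

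**Figure D1:**
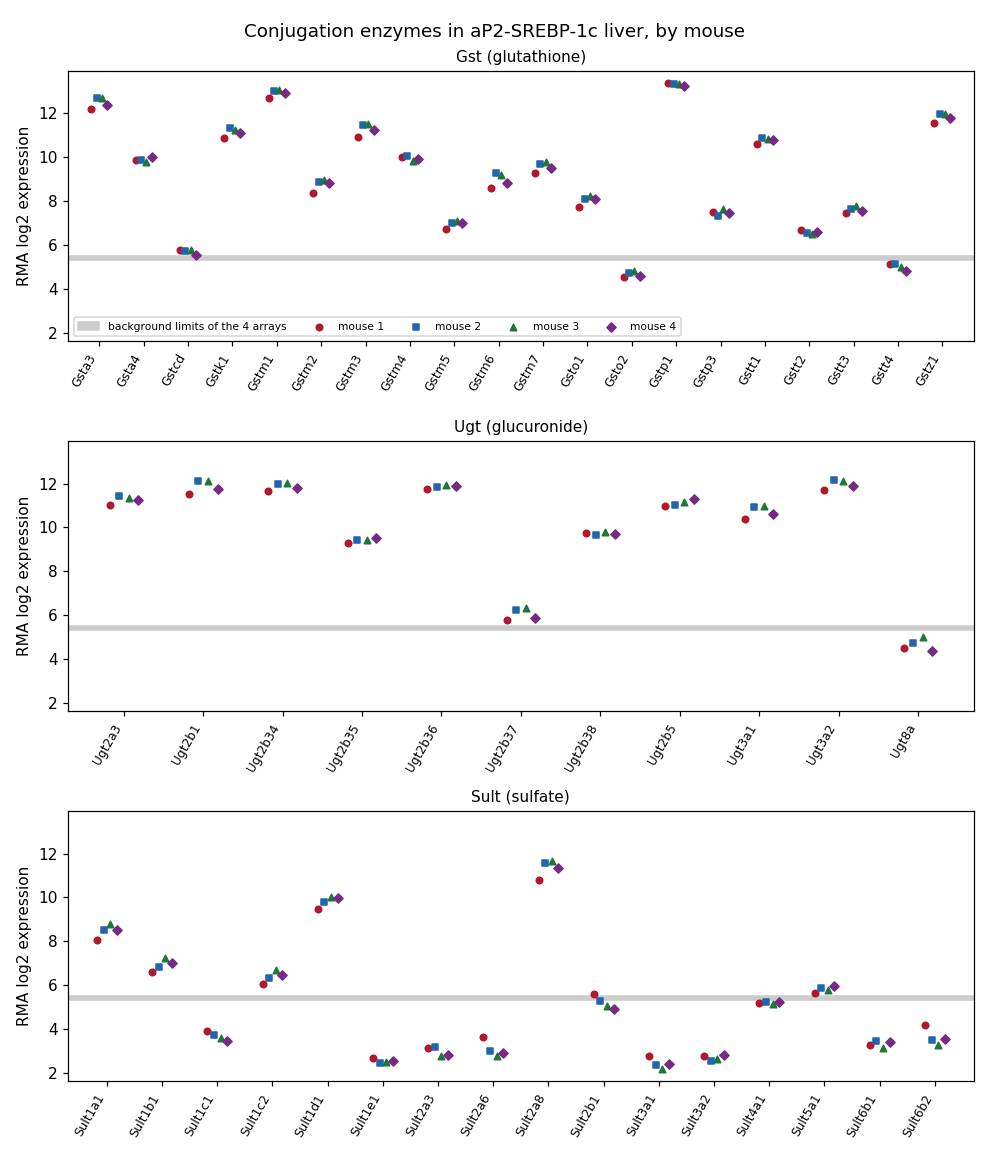
RMA log2 expression (vertical axis) of all 47 conjugation enzymes by mouse, in panels for Gst, Ugt and Sult genes, with the background limits of the 4 arrays as a grey line. Most Gst and Ugt genes lie well over the limits in every mouse, whereas 10 of 16 Sult genes do not exceed them on all arrays.

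Promoter sequences of 5 members above background are shown to set those that varied most beside those that varied least. They are from RefSeq, on GRCm38.p6, and hold 250 bases before to 50 bases after the annotated start, 5′ to 3′ on the strand of the gene. Gsta3 (chr1:21240335-21240634, + strand) is given for its antioxidant response element, Gstm6 (chr3:107953417-107953716, - strand) as the Gst gene above background with the largest SD and Gstp1 (chr19:4037863-4038162, - strand) as the member above background with the smallest. Sult1a1 (chr7:126676369-126676668, - strand) and Sult2a8 (chr7:14446538-14446837, - strand) were the members above background with the largest range between mice. Capitals mark, on either strand, TGACNNNGC (the antioxidant response element core bound by Nrf2), GTTAAT (part of the motif of the liver factor HNF1), TATAAA (the TATA box) and GCGTG (the core bound by the aryl hydrocarbon receptor).
Gsta3: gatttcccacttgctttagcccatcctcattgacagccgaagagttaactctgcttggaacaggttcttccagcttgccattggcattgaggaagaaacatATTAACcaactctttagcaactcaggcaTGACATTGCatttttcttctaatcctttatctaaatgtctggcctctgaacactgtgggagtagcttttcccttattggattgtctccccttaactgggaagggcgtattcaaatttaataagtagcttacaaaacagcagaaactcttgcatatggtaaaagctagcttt
Gstm6: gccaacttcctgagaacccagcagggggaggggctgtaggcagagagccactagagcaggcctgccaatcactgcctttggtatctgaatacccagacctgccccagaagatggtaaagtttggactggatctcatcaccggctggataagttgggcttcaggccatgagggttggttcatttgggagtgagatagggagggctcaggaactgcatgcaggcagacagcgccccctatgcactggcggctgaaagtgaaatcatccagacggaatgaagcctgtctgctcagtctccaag
Gstp1: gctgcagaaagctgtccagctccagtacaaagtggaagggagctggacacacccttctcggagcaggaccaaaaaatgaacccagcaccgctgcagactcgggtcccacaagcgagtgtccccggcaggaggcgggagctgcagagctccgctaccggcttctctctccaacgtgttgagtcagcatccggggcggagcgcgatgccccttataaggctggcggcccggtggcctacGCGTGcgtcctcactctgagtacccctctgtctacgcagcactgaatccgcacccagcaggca
Sult1a1: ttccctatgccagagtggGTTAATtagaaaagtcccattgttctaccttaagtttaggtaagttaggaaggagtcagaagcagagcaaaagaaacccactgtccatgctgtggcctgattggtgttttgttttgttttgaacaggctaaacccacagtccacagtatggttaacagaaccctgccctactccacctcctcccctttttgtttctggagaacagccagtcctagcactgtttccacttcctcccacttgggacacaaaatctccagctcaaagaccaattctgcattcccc
Sult2a8: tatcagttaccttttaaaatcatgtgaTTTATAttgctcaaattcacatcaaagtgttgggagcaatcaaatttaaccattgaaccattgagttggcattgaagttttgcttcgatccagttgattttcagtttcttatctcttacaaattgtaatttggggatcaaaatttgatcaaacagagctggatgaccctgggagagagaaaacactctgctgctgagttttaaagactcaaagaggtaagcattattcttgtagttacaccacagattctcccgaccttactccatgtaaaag

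A promoter was listed for 43 of the 47 members, and 11 members had several, of which the first listed was read. The antioxidant response element core was found in 2 of the 43 promoters, those of Gsta3 and Gstm5 (4.65%, against 12.5% of 27025 genes). GTTAAT was found in 8 member promoters (18.6%, against 7.20%), namely in 5 of 15 Sult, 2 of 10 Ugt and 1 of 18 Gst promoters. TATAAA was found in 9 (20.9%, against 14.2%), of which 6 belonged to Sult genes, and GCGTG in 8 (18.6%, against 32.5%). Gstm6, whose levels ranged 1.59-fold between mice, had none of the 4 motifs in this window, and Gstp1 had the GCGTG core alone. A match of letters describes the sequence and does not mark a bound site.

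The Gst family is ordered by class. In the alpha class, Gsta3, which detoxifies the epoxide of aflatoxin in mice, was at 12.21, 12.71, 12.71 and 12.39 in mice 1 to 4 (12.50 ± 0.25, SD, n = 4). Mice 1 and 4 were lower than mice 2 and 3. Gsta4, which conjugates the lipid peroxidation product 4-hydroxynonenal, was at 9.88, 9.88, 9.80 and 10.02, so that mouse 1 lay within the other mice. Gsta1 and Gsta2 shared all their probe sets with other symbols. The 4 sets annotated to Gsta1, Gsta2 and 2 predicted genes had means of 9.15 to 9.73 and ranges of 1.08-fold to 1.37-fold.

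All 7 mu class genes were above background, and 6 of them were lowest in mouse 1 and next lowest in mouse 4. This order was seen in 22.6% of all genes above background, and in 372 of the 679 with a mean over 10. Gstm1, a major transferase for epoxides in mouse liver, was at 12.70, 13.04, 13.08 and 12.92 in mice 1 to 4. Gstm6 was at 8.62, 9.28, 9.19 and 8.84, a 1.59-fold range with an SD of 0.31. Gstm3 was at 10.93, 11.47, 11.53 and 11.23, and its other probe set at 10.16, 11.28, 11.22 and 10.81. Both sets of Gstm3 thus had the same mice low, with a 1.51-fold range in the brighter set and a 2.17-fold range in the other. Gstm2 was at 8.38, 8.87, 8.95 and 8.83. Gstm7 (9.57 ± 0.23) and Gstm5 (6.97 ± 0.15, SD, n = 4 each) shared the order of the mice. Gstm4 did not, with 10.01, 10.06, 9.83 and 9.95 and mouse 3 lowest.

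The pi class did not show this order. Gstp1, an abundant transferase of male mouse liver, had the smallest SD of the 34 members above background, at 13.39, 13.34, 13.36 and 13.27 in mice 1 to 4 (13.34 ± 0.05, SD, n = 4). Its 2 probe sets shared with Gstp2 were at 11.65, 11.33, 11.36 and 11.59 and at 11.19, 10.89, 10.94 and 11.13. In both shared sets mice 1 and 4 were higher than mice 2 and 3, whereas they were lower in 6 of the 7 mu class genes. Gstp3 was at 7.50 ± 0.13 (SD, n = 4), with mouse 2 lowest.

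Among the other classes, Gstz1, which isomerizes maleylacetoacetate in tyrosine breakdown, was at 11.56, 11.97, 11.96 and 11.81. The mitochondrial and peroxisomal Gstk1 was at 10.86, 11.32, 11.25 and 11.12. Gsto1, which reduces mixed disulfides, was at 7.75, 8.12, 8.23 and 8.08. All 3 genes were lowest in mouse 1 and next lowest in mouse 4. In the theta class, Gstt1, which acts on small halogenated compounds, was at 10.63, 10.86, 10.82 and 10.81, and Gstt3 averaged 7.60 ± 0.14 (SD, n = 4). Gstt2, next to them on chromosome 10, was at 6.68, 6.54, 6.52 and 6.62 and highest in mouse 1. Gstcd, which carries a domain like that of the transferases, was at 5.72 ± 0.12 (SD, n = 4), only 0.33 over the mean limit. Gsto2 and Gstt4 were not above background.

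None of the 10 Ugt genes above background differed by more than 1.5-fold between mice, but 9 of them were lowest in mouse 1. Enzymes of the Ugt2b group glucuronidate steroids, bile acids and drugs, and all 7 were above background. Ugt2b1 was at 11.53, 12.09, 12.10 and 11.75 in mice 1 to 4 and had the largest SD of the 10 Ugt genes above background (0.28). Ugt2b37 was at 5.79, 6.22, 6.32 and 5.88, and thus 0.66 over the mean limit. In both genes mice 1 and 4 were below mice 2 and 3. Ugt2b36 was at 11.75, 11.84, 11.92 and 11.91. Ugt2b35 was at 9.29, 9.42, 9.44 and 9.52. Ugt2b5 was at 10.97, 11.00, 11.16 and 11.31. In these 3 genes mouse 2 came next to mouse 1 at the low end, an order found in 16.0% of all genes above background, and mouse 4 was highest in Ugt2b35 and Ugt2b5. Ugt2b38 was at 9.75, 9.67, 9.80 and 9.68, with the smallest SD of these 10 genes (0.06) and mouse 2 lowest. Ugt2b34 averaged 11.87 ± 0.16 and Ugt2a3 11.25 ± 0.19 (SD, n = 4 each), and in both mouse 4 came next to mouse 1.

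The Ugt3a enzymes use other sugars than glucuronic acid in humans. Ugt3a1 was at 10.39, 10.95, 10.96 and 10.63. Ugt3a2 was at 11.71, 12.14, 12.10 and 11.90. The 2 probe sets annotated to both genes had ranges of 1.41-fold and 1.42-fold, again with mice 1 and 4 below mice 2 and 3. The Ugt1a genes share their last exons and were measured by 1 probe set with 8 symbols, among them Ugt1a1, the bilirubin transferase, and Ugt1a6a, which acts on phenols. This set was at 9.91, 10.37, 10.41 and 10.26 in mice 1 to 4, and its value cannot be split between the genes. Ugt8a, the ceramide galactosyltransferase of myelin, was not above background, and neither was the probe set shared by Ugt2a1 and Ugt2a2.

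**Figure D2:**
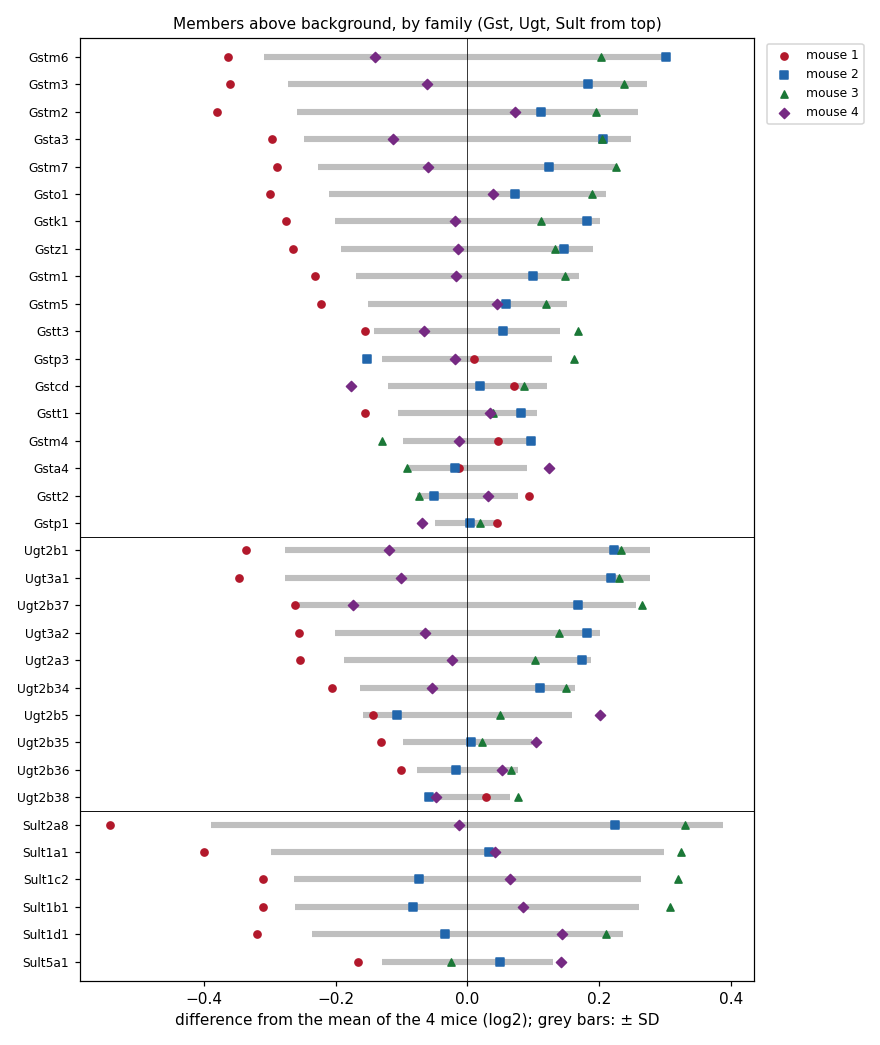
Deviation of each mouse from the 4-mouse mean (log2, horizontal axis) for the 34 conjugation enzymes above background, sorted by SD within each family, with grey bars for ± SD. Mouse 1 lies farthest to the left for 27 of the 34 genes, and the SD is largest for Sult2a8 and smallest for Gstp1.

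The Sult family had the fewest members above background, and the 6 that were had the largest median SD of the families (0.26). Sult5a1 among them had an SD of only 0.13. Sult2a8, a bile acid sulfotransferase of mouse liver, was at 10.80, 11.57, 11.68 and 11.33 in mice 1 to 4, a 1.83-fold range and the largest SD of the members above background (0.39). Without mouse 1 its range was 1.27-fold. Sult1a1, which sulfates phenols, was at 8.08, 8.51, 8.81 and 8.52, a 1.65-fold range. Sult1b1, which sulfates thyroid hormones, was at 6.61, 6.83, 7.22 and 7.00. Mouse 3 was highest and mouse 1 lowest in these 3 genes. Sult1c2 was at 6.08, 6.32, 6.71 and 6.45. Sult1d1, a sulfotransferase for catecholamines in mice, was at 9.49, 9.78, 10.02 and 9.96. All 4 Sult1 genes above background had mouse 1 lowest, mouse 2 next and mouse 3 highest. Mouse 1 lowest with mouse 2 next was seen in 3 of 10 Ugt genes and none of the 18 Gst genes. Its share was 16.0% of all genes above background, with 632 of 2136 at a mean of 8 to 10. Sult5a1 was at 5.65, 5.87, 5.79 and 5.96, with mouse 4 highest.

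The remaining 10 Sult genes were not above background. Sult1e1, the oestrogen sulfotransferase, was at 2.70, 2.48, 2.52 and 2.55 in mice 1 to 4, under the limit in every mouse. Sult3a1, which is known for female-predominant expression in mouse liver, was at 2.79, 2.37, 2.19 and 2.42. The hydroxysteroid sulfotransferase Sult2a1, likewise known from female liver, was measured only together with other Sult2a genes, by 2 probe sets with means of 2.26 and 3.58 that were not above background. Sult2b1, a cholesterol sulfotransferase of skin, was at 5.61, 5.26, 5.06 and 4.91, over the limit in mouse 1 alone. Sult4a1, known from brain, averaged 5.21 ± 0.04 (SD, n = 4). Together with Gsto2, Gstt4 and Ugt8a, the 13 members not above background had means of 2.44 to 5.21. In them mouse 1 was 0.18 higher than the other mice in the median, against 0.13 for all 7673 genes not above background, and it was highest in 7 of the 13 (53.8%), against 45.6% of all such genes.

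Over the 34 members above background, mouse 1 was lowest in 27 (79.4%), against 46.1% of all genes above background. By family, this held for 12 of 18 Gst, 9 of 10 Ugt and 6 of 6 Sult genes. Relative to the average of the other mice, the median difference of mouse 1 was -0.34 over the members, against -0.08 over all genes above background and -0.21 over those with a mean over 10. The families had medians of -0.30 (Gst), -0.31 (Ugt) and -0.42 (Sult). Of the members with a mean over 10, mouse 1 was lowest in 6 of 7 Gst, 7 of 7 Ugt and 1 of 1 Sult gene, beside the 78.1% of all genes at that level. Mouse 3 was highest in 20 members, namely 9 Gst, 6 Ugt and 5 Sult genes, against 31.4% of all genes above background. At higher levels this was more frequent, with 996 of 2136 genes with a mean of 8 to 10 and 316 of 679 over 10. The median difference of mouse 3 was 0.19 for Gst, 0.16 for Ugt and 0.42 for Sult genes. It was 0.05 for all genes above background and 0.13 for those with a mean over 10. The low values of mouse 1 in the members thus stood beside a narrower range of its array as a whole, with low genes higher and high genes lower than in the other mice, whose part was not tested.

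**Figure D3:**
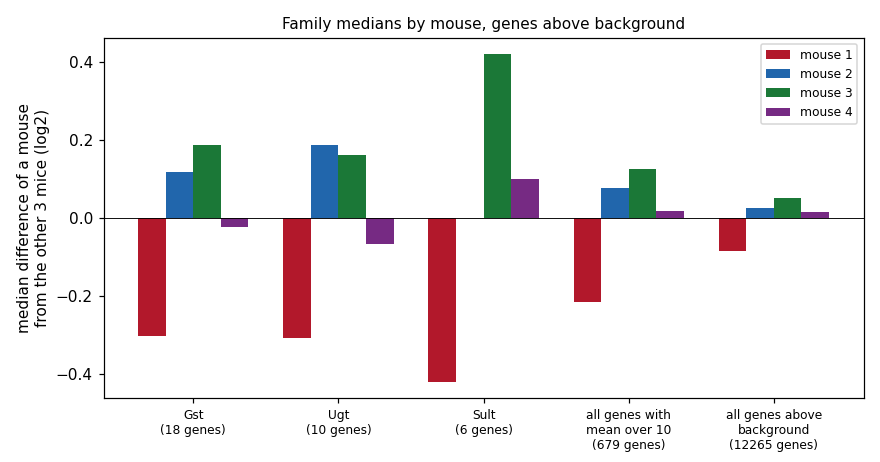
Median difference of each mouse from the mean of the other 3 mice (log2, vertical axis) for the Gst, Ugt and Sult genes above background, beside all genes with a mean over 10 and all genes above background. Mouse 1 is the lowest bar in every set, from -0.42 in Sult to -0.08 in all genes, and mouse 2 is near 0 in Sult.

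The median SD between mice was 0.19 for the 34 members, against 0.15 for all genes above background. It was 0.16 for Gst, 0.18 for Ugt and 0.26 for Sult genes. Without mouse 1, the medians were 0.115 for the members, 0.106 for Gst, 0.119 for Ugt and 0.170 for Sult genes, against 0.114 for all genes. Differences between the families were not tested, since their members share the same 4 livers and are not independent of each other. When the arrays were quantile-normalized, mouse 1 was lowest in 21 of 34 members, against 36.1% of all genes above background under this scaling. Sult1c2 and Sult2a8 alone of the 34 then ranged over more than 1.5-fold, against 10.6% of all genes. When the arrays were median-centred, 12 members did so, against 16.1% of all genes, with Gstm2, Gstm7, Sult1d1, Ugt2b1, Ugt2b37 and Ugt3a1 added to the 6. The median differences of mouse 1 remained below 0 under both scalings, at -0.16 and -0.37 for Gst, -0.11 and -0.38 for Ugt and -0.37 and -0.49 for Sult genes.

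Many of the genes lie in clusters of neighbours in the RefSeq annotation. The 7 Gstm genes lie together on chromosome 3, in the order Gstm5, Gstm7, Gstm6, Gstm3, Gstm2, Gstm1 and Gstm4. Along this row, mouse 1 differed from the average of the other mice by -0.30, -0.39, -0.49, -0.48, -0.51, -0.31 and 0.06. The only positive difference was that of Gstm4, at the end of the row. The value of Gstm3 is from its brighter probe set, whose place in the cluster is not known here, and the other set gave -0.94. On chromosome 5, the Ugt2 genes are followed by Sult1b1, Sult1d1 and Sult1e1. In mouse 2, Sult1b1 and Sult1d1 differed from the average of the other mice by -0.11 and -0.05, whereas Ugt2b1, Ugt2a3 and Ugt2b37 of the same cluster were above it by 0.30, 0.23 and 0.22. In the same mouse, Ugt2b34 and Ugt2b35 differed by 0.15 and 0.01, and Ugt2b36, Ugt2b5 and Ugt2b38 by -0.02, -0.14 and -0.08. Mouse 3 was highest in Sult1b1 and Sult1d1 and also in Ugt2b1 and Ugt2b37, while mouse 2 was highest in Ugt2a3. In the Sult2a cluster on chromosome 7, Sult2a8 was above background, while Sult2a3 and Sult2a6 beside it, at means of 2.99 and 3.09, were not.

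**Figure D4:**
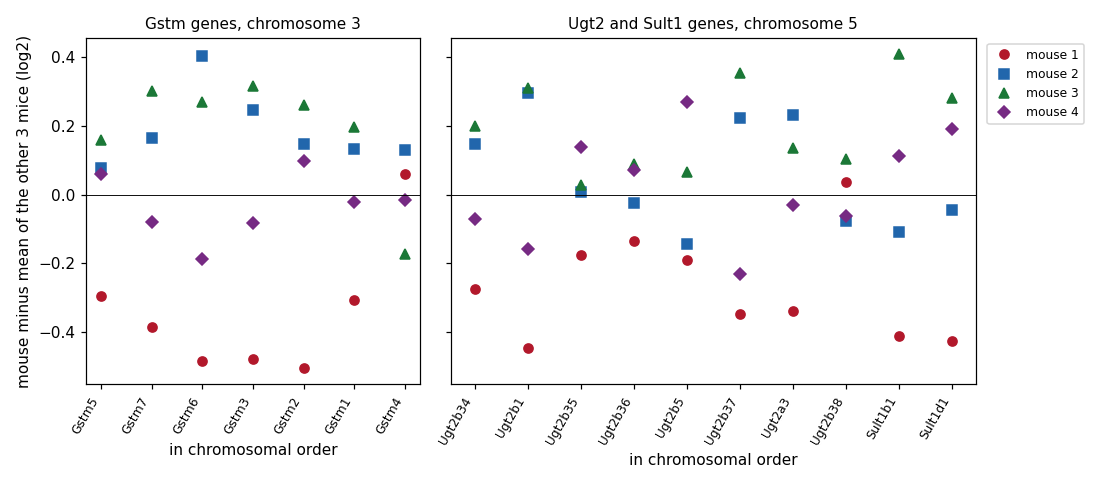
Difference of each mouse from the mean of the other 3 mice (log2, vertical axis) for the members above background of the Gstm cluster on chromosome 3 and the Ugt2 and Sult1 cluster on chromosome 5, in chromosomal order. Mouse 1 is below 0 for 6 of 7 Gstm genes and for all genes of the chromosome 5 cluster but Ugt2b38.

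The enzymes depend on supplies of glutathione, UDP-glucuronic acid and PAPS. All 10 genes of cofactor supply were above background, and mouse 1 was lowest in 8 of them and mouse 4 next in 7. Over all genes above background, the corresponding shares were 46.1% and 22.6%. Most of the list lies at higher levels, where mouse 1 was lowest in 73.9% of genes with a mean of 8 to 10 and 78.1% over 10. Mouse 1 lowest with mouse 4 next held there for 801 of 2136 and 372 of 679 genes. Papss2, which makes PAPS, was at 9.56, 10.55, 10.54 and 10.28 in mice 1 to 4, a 1.99-fold range. Ugp2, which makes UDP-glucose, ranged 1.61-fold, and Ugdh, which oxidizes it to UDP-glucuronic acid, was at 10.61, 11.17, 11.17 and 11.04. Gclc, the catalytic subunit for the first step of glutathione synthesis, was at 11.43, 11.95, 11.90 and 11.65. The median difference of mouse 1 over the list was -0.39, beside -0.34 for the conjugation enzymes. Slc35d1, a carrier of UDP-sugars into the endoplasmic reticulum, was higher in mice 1 and 4 than in mice 2 and 3, with 9.94, 9.60, 9.77 and 9.99. Among the microsomal glutathione transferases, which are unrelated in sequence to the Gst genes, Mgst1 averaged 13.52 ± 0.15 and Mgst3 7.86 ± 0.11 (SD, n = 4 each), and Mgst2 was not above background.

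Receptors and factors known to regulate conjugation genes were measured as well. All 10 measured of 11 listed were above background, and 4 differed by more than 1.5-fold between mice, against 12.9% of all genes above background. Ahr, the aryl hydrocarbon receptor, was at 7.79, 8.59, 8.83 and 8.38 in mice 1 to 4, a 2.05-fold range. Nfe2l2, which encodes Nrf2, was at 9.02, 9.92, 9.98 and 9.52, a 1.94-fold range. Ppara ranged 1.89-fold and Nr1i3, which encodes the receptor CAR, 1.69-fold, and mouse 1 was lowest in these 4 genes. Nr1i2, which encodes PXR, and Arnt, the partner of Ahr, ranged 1.17-fold and 1.08-fold. Of 9 Nrf2 targets above background, Gclc and Gclm of the previous list included, mouse 1 was lowest in 5, among them Nqo1 (6.18 ± 0.23, SD, n = 4). Of 7 targets of CAR, PXR and Ahr above background, mouse 1 was lowest in 4. Beside both counts of targets stands the 46.1% of all genes above background that were lowest in mouse 1. Cyp1a2 and Abcc3 ranged 1.68-fold and 1.57-fold, while Cyp2b10 averaged 6.39 ± 0.09 and Cyp3a11 13.11 ± 0.10 (SD, n = 4 each). Relations between the sensors and the members were not tested over 4 mice.

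Conjugates leave the hepatocyte through ABC transporters. All 6 listed were above background, and 3 ranged over more than 1.5-fold, against 12.9% of all genes above background. Abcg2 ranged 1.83-fold (9.06, 9.92, 9.93 and 9.71 in mice 1 to 4), Abcc3, which exports glucuronides to the blood, 1.57-fold, and Abcc4 1.504-fold. In Abcg2 and Abcc3 mouse 1 was lowest, whereas Abcc4 was highest in mouse 4 and lowest in mouse 3. Abcc2, the canalicular exporter, was at 10.89 ± 0.24 (SD, n = 4). Enzymes that remove glucuronic acid or sulfate, namely Gusb (7.10 ± 0.16), Arsa (7.11 ± 0.24) and Arsb (9.06 ± 0.21, SD, n = 4 each), were each lowest in mouse 1. This held for 46.1% of all genes above background. Among conjugation enzymes of other families, 8 of 9 measured were above background and 3 ranged over more than 1.5-fold, against 12.9% of all genes. The methyltransferases Hnmt (2.12-fold) and Tpmt (1.74-fold) were lowest in mouse 1. Nnmt, which methylates nicotinamide, ran the other way, at 8.41, 7.81, 7.74 and 8.47.

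The order of the mice seen in many Gst and Ugt genes was also that of markers of pericentral hepatocytes. Mouse 1 was lowest and mouse 4 next in 19 of the 34 members. These were 12 of 18 Gst, 6 of 10 Ugt and 1 of 6 Sult genes. The same order was found in 9 of 10 pericentral markers above background. It held for 22.6% of all genes above background, but more often at higher levels. There it was seen in 801 of 2136 genes with a mean of 8 to 10 and in 372 of 679 over 10. The pericentral markers had median differences of -0.54, 0.34, 0.35 and -0.16 in mice 1 to 4. Glul, glutamine synthetase of the innermost pericentral cells, was at 10.49, 11.30, 11.38 and 11.02, and the summed linear level of the list was 13799, 20075, 20269 and 16721. The 7 periportal markers above background had median differences of -0.03, -0.16, -0.03 and 0.15, with a summed level of 23234 to 24431. The acinar genes, with median differences of 1.24, -1.46, -1.01 and 1.16, were high in the mice in which these members were low. The part of the pericentral cells and of the acinar RNA in the values of the members was not tested.

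**Figure D5:**
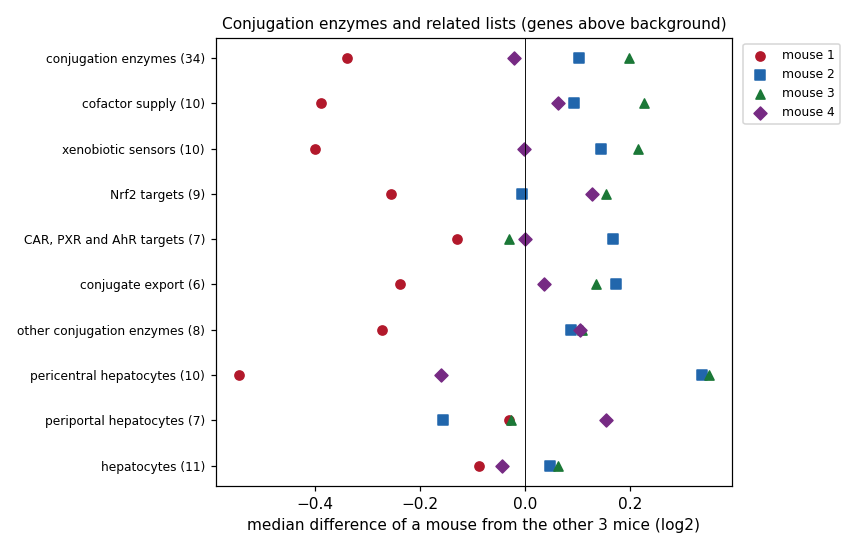
Median difference of each mouse from the mean of the other 3 mice (log2, horizontal axis) for the conjugation enzymes above background and for related gene lists, with the number of genes above background in brackets. Mouse 1 is lowest in every list but the periportal one, and the differences are largest for pericentral hepatocytes, at -0.54 in mouse 1.

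Several Sult and Ugt genes differ between the sexes in mouse liver, and lists of sex-biased genes were read for this reason. All 7 measured male-biased genes were above background, such as Elovl3 at 12.70 ± 0.07 and Cyp4a12a at 11.92 ± 0.20 (SD, n = 4 each), with none over a 1.5-fold range. Of 6 measured female-biased genes, 4 were above background, namely Cyp3a44 (mean 9.02), Fmo2 (6.31), Acot3 (6.34) and Cux2 (6.20). Cyp2b9 and A1bg were not. Of the conjugation enzymes known for female-predominant expression, Sult3a1 and the Sult2a1 sets lay among those not above background in all 4 mice. Among the other cell types, the 8 macrophage markers, all above background, had a summed level of 1642 to 1844. The 6 measured cholangiocyte markers, of which 4 were above background, had a summed level of 342 to 397. Neither list had mouse 1 far below the others, at median differences of -0.11 and -0.08.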

How the data were processed

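Liver RNA of 4 aP2-SREBP-1c mice was analysed on 1 Mouse Gene 1.0 ST array each. The deposited values are log2 expression values that the authors made with RMA, for which the submitters' processing notes name the Affymetrix Expression Console. RMA corrects the background, applies quantile normalization and combines the probes of a set by median polish. The set of arrays that was normalized jointly and the genome build are not given in the sources used here. Therefore probe set coordinates are left out. Each value column was assigned to its mouse through the label.

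Gene symbols came from the platform annotation. Of 35556 probe sets, 21789 had 1 symbol, 1621 several and 12146 none here. For all 47 members the symbol was the same in the RefSeq table of GRCm38.p6. Probe sets with several symbols were read separately and entered no count. Promoters were matched by gene identifier to RefSeq sequences of the same assembly.

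Means, SDs and ranges were computed on the log2 scale. The fold range is 2 to the power of the highest minus the lowest value. The difference of a mouse is its value minus the mean of the other 3, and a family value is the median over its members above background. Scripts ran in Python 3.11.15 with pandas 2.3.3, numpy 2.4.6 and scipy 1.17.1, and plots were drawn in matplotlib 3.10.9. In simulated data for 12265 genes, some genes chosen at random were lowered on 1 array by 0.5 and others by 1.0. The median differences recovered over these genes were -0.50 and -1.00. A shift of a whole array was not simulated.

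Values of all mice are given for members over a 1.5-fold range, for the 3 most and the 3 least variable members of each family by SD and for a list of well-known members. Other genes come from lists of cofactor supply, sensors, targets, export, deconjugation, sex bias and cell types. The members and lists were chosen with earlier results of these data known. Alternatives comprised other background limits, a 2-fold range, median-centred and quantile-normalized arrays, no filter on low values, the mean of all probe sets, updated symbols and leaving out each mouse. The labels do not pair mice with anything, and the small number of arrays limits the precision. Correlation between arrays across genes above background was 0.974 to 0.993, where genes are not independent replicates.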

Additional observations from a re-analysis of the deposited data

How the results depend on the processing

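The 34 members above background were 31 to 35 under other limits, and all 36 such counts over the families stayed within 1.5 times of the values given. The counts over a 1.5-fold range moved most. For all members the 6 genes became 0 with a 2-fold range, 12 with median-centred arrays, 2 with quantile normalization and 11 without a filter on low values. The 2 Gst genes became 0, 4 and 0 with the 2-fold range, median-centred arrays and quantile normalization. The count of 0 Ugt genes became 3 with median-centred arrays and 1 without the filter. The 4 Sult genes became 0 with the 2-fold range, 2 with quantile normalization and 8 without the filter. Leaving out each mouse in turn gave 0 to 6 members, 0 to 2 Gst and 0 to 4 Sult genes, with 0 in each without mouse 1. Without mouse 3, 2 members remained over 1.5-fold, 1 Gst and 1 Sult gene, and without mouse 2 there was 1 Gst gene. The median SD of all members was 0.115 to 0.232 when each mouse was left out, the lowest without mouse 1. Without the filter, which adds the 10 Sult genes not above background, the median difference of the Sult genes was 0.048 in mouse 1 and -0.070 in mouse 3. The other 94 median differences of single mice moved by less than the spread between mice, as did all 238 levels of named genes. Of 32 median SDs, 31 moved by less than a standard error computed from the medians with each mouse left out. This standard error itself includes the fall without mouse 1. No paired analysis was possible because all 4 mice belong to a single group.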

Other observations

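The gap test for a single mouse far from the other 3 marked none of the 34 members above background, against 5.75% of all genes above background. Genes of kidney and intestine were read beside the members. Of 5 measured kidney genes 2 were above background, and of 7 intestinal genes 4, with Fabp2 at 10.44 ± 0.13 (SD, n = 4), a fatty acid binding protein that liver also expresses. The macrophage receptor Marco was highest in mouse 1, at 7.06, 6.31, 6.14 and 6.63 in mice 1 to 4. The 8 macrophage markers did not share this, with 3 highest and 4 lowest in mouse 1. The 4 lowest there were Adgre1, Cd68, Csf1r and Vsig4. Plin1, a lipid droplet protein, was at 6.32, 5.90, 5.36 and 5.49. It was highest in mouse 1, as was Retn, whereas Lipe of the same list was highest in mouse 4.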
